A study of Mus musculus with 24 samples.

Results

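The transcripts of 10 genes of neuronal calcium signalling were followed in sorted cortical neurons: 5 genes of calcium/calmodulin-dependent protein kinases (Camk2a, Camk2b, Camk2d, Camk2g and Camk4), the kinase-like gene Camkv, the calcium sensor genes Vsnl1, Ncald and Hpcal4, and the tyrosine kinase gene Ptk2b. They were chosen by name, with earlier results of these data known, so they are not an independently chosen set. All 10 were found among the 32310 entries of the expression table. RNA was measured in callosal neurons, which join the hemispheres, subcerebral neurons, with targets in brainstem and spinal cord, and corticothalamic neurons, with targets in the thalamus. All were purified by FACS from CD1 mice, an outbred strain, at 4 ages named E15, E16 and E18 (embryonic days) and P1 (the first day after birth), and the labels give no treatment. There were 12 groups of 2 libraries, 24 in all, and the table holds 1 pooled value per group. The sources used here do not say which markers were sorted on or whether libraries came from separate or pooled animals.

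Calcium that enters a neuron binds calmodulin, and calcium-loaded calmodulin switches on CaM kinases. CaMKII is assembled as a multi-subunit holoenzyme from the products of Camk2a, Camk2b, Camk2d and Camk2g. In the forebrain the alpha and beta subunits predominate in mature excitatory neurons, where the enzyme acts at synapses, and the beta subunit binds actin. CaMKIV, the product of Camk4, is a largely nuclear kinase known for phosphorylating CREB. Visinin-like 1, neurocalcin delta and Hpcal4 belong to the visinin-like branch of the neuronal calcium sensors, small EF-hand proteins with a lipid anchor. Ptk2b encodes PYK2, a calcium-responsive relative of focal adhesion kinase.

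A member without a window here may still have an entry in the RefSeq promoter table of build GRCm38.p6. Promoter windows from that table are shown for 4 of the 5 members whose window was used, leaving out the barely detected Camk2d. Each is the 250 bases before the annotated start, 5′ to 3′ on the gene's strand, and capitals mark matches to the GC box GGGCGG, the CCAAT box CCAAT and the NRF1 core TGCGCA on either strand, with overlapping matches run together. The windows are chr11:6065749-6065998 (minus strand), chr9:107935670-107935919 (plus strand), chr12:11436579-11436828 (minus strand) and chr4:123183254-123183503 (plus strand). For Vsnl1, which has 2 starts in that table, the start farthest upstream was taken.
Camk2b: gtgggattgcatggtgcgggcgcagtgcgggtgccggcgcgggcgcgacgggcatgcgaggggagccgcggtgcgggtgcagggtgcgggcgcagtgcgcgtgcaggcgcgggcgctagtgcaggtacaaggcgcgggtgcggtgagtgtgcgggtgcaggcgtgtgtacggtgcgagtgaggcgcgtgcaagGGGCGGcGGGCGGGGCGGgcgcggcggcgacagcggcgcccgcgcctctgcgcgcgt
Camkv: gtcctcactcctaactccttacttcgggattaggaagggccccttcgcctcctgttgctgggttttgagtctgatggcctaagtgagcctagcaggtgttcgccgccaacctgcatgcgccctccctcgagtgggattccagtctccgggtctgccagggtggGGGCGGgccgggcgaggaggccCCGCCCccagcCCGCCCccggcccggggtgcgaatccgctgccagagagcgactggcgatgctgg
Vsnl1: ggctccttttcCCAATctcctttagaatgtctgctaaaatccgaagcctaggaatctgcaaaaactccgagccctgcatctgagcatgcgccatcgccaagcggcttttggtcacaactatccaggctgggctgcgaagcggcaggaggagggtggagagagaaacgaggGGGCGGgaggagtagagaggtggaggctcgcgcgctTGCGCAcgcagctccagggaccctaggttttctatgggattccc
Hpcal4: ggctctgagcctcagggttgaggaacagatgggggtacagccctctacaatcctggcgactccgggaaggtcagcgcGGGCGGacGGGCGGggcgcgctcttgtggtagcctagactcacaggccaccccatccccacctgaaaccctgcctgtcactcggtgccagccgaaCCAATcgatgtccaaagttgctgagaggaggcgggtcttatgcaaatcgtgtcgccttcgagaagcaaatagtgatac
The GC box occurred 3 times before Camk2b, 3 times before Camkv, 1 time before Vsnl1 and 2 times before Hpcal4, and 32.7% of the 32851 windows in the table hold at least 1 match. A CCAAT box was present before Vsnl1 and Hpcal4 (33.8% of all windows) and the NRF1 core before Vsnl1 (6.43% of all windows). The half-site TGACG of the cAMP response element (17.8% of all windows) and the E-box CAGCTG (13.001% of all windows) have no match in these windows. The Camk2b window contained 44 CpG dinucleotides, more than 99.5% of all windows, while those of Camkv, Vsnl1 and Hpcal4 contained 18, 14 and 16, against a median of 6. The matches are descriptions of the sequence; the table holds no measurement of binding.

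Values are in FPKM, sequenced fragments relative to transcript length and library size, which allows levels of different genes to be set side by side. No value has a replicate error of its own. Tests used limma on log2(FPKM + 1) over the 12 values, so a subtype difference is a mean over the 4 stages and a stage difference a mean over the 3 subtypes, given ± the standard error of the fit, and the p-value measures how evenly a difference held across stages or subtypes. It says nothing of how libraries vary. A gene passed where its p, adjusted over the 13946 genes tested, was under 0.05. All 10 members were tested, but Camk2d met the filter (1 FPKM in at least 2 columns) only through its 2 highest columns, both at P1.

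Each set of subtype markers was, in sum, highest in the subtype it is named for, though not every single marker was. At E15 the callosal marker Lpl was 20.4 FPKM in callosal and 83.3 FPKM in corticothalamic neurons. The subcerebral marker Pcp4 was then 6.09 FPKM in subcerebral and 25.8 FPKM in corticothalamic neurons. The summed level of 8 callosal markers was 796 to 1153 FPKM in callosal neurons and at most 159 FPKM elsewhere. For 6 subcerebral markers the sum was 470.3 to 758 FPKM in subcerebral neurons, against 303 FPKM or less elsewhere. For 6 corticothalamic markers it was 675 to 811 FPKM in corticothalamic neurons, against 405 FPKM or less elsewhere. Markers of other cells also differed between columns. The summed level of 9 interneuron markers was 83.9 to 398 FPKM in callosal, 11.3 to 422 FPKM in subcerebral and 89.7 to 718 FPKM in corticothalamic neurons, most of it at the upper end from Npy, which was 15.6, 8.13 and 81.5 FPKM at E15 and 394, 415 and 687 FPKM at P1. Other markers of that list had another order at E15: Gad1 and Dlx1, singled out after their values were seen, were 7.53 and 20.0 FPKM in callosal neurons at E15, against 0.341 and 1.22 FPKM in subcerebral and 1.06 and 2.70 FPKM in corticothalamic neurons. Summed microglial markers (11 genes) peaked at 48.7 FPKM in callosal neurons at E16 and did not exceed 7.53 FPKM in subcerebral or 9.23 FPKM in corticothalamic neurons, where 10 of the 11 were under 1 FPKM at all 4 stages, none of them at 0 throughout. Summed subplate markers (6 genes) were 55.1 to 185 FPKM in corticothalamic neurons, against 39.2 FPKM or less in the others. Summed markers of astrocytes, oligodendrocytes, vessels, red blood cells or Cajal-Retzius cells were 44.7 FPKM or less in every group. In such bulk samples, fewer cells of a type and less RNA per cell cannot be told apart.

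All 10 genes were higher at P1 than at E15, Ptk2b and Vsnl1 by the widest margins. Of the 30 combinations of gene and subtype, all 30 were higher at P1 than at E15, and 23 were higher at each stage than at the stage before. All 10 passed as higher, where 67.4% of all genes tested passed, 33.8% as higher and 33.6% as lower, with a median difference of 0.00 on the log2 scale, while the members had a median of 1.46. Camk2d, which could pass the filter only where P1 was high, is among the 10. The rise was large for Ptk2b (5.16 ± 0.51, limma adjusted p = 5.78e-05), Vsnl1 (4.08 ± 0.15, limma adjusted p = 1.71e-06), Ncald (3.30 ± 0.32, limma adjusted p = 4.99e-05) and Camk2a (2.23 ± 0.20, limma adjusted p = 3.16e-05). It was 1.55 ± 0.25 for Camkv, 1.38 ± 0.23 for Hpcal4, 1.37 ± 0.12 for Camk2b and 1.17 ± 0.31 for Camk4 (limma adjusted p = 0.000791, 0.000881, 2.45e-05 and 0.00959). Camk2g rose by 0.32 ± 0.07 (limma adjusted p = 0.00381). Stage cannot be told apart from differences in collection or preparation shared by all groups of a stage. Of 9 tested progenitor and proliferation markers 8 were lower and 1 higher at P1. Eomes, Hes5, Pax6, Sox2 and Top2a, among the 8, met the filter only through E15 and E16 columns, where they were highest. The summed level of the markers on that list was 45.3 to 67.9 FPKM at E15 and 9.03 to 27.4 FPKM at P1. Their part in the rise was not tested. Without corticothalamic neurons the adjusted p was 0.0774 for Camk2d, 0.0566 for Camk2g and 0.0532 for Camk4, and Camk4 and Camk2d also missed the threshold without callosal (0.0715) and without subcerebral neurons (0.0815), respectively. In a fit on the 6 columns of E15 and P1 it was 0.0649 for Camk2g and 0.0621 for Camk4. With quantile normalization the Camk2g difference was 0.16 (limma adjusted p = 0.0866).

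**Figure D1:**
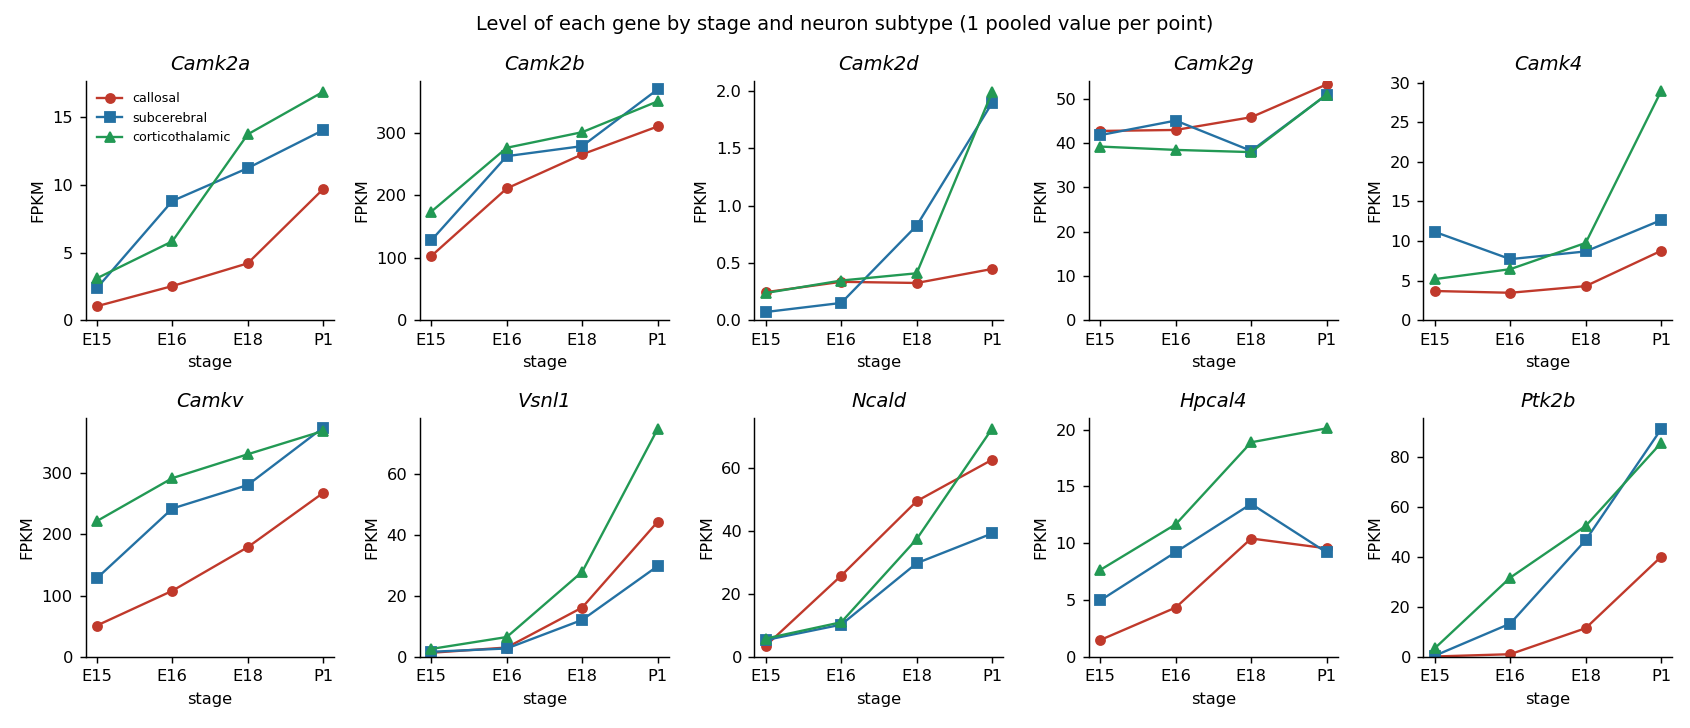
Level of each of the 10 genes in FPKM (vertical axes from 0, a separate scale per gene) at E15, E16, E18 and P1. Each point is 1 pooled value for callosal (red circles), subcerebral (blue squares) or corticothalamic neurons (green triangles); callosal neurons have the lowest point at every stage for Camk2a, Camk2b, Camk4, Camkv and Ptk2b.

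Camk2a, Camk4, Camkv, Hpcal4 and Ptk2b passed as lower in callosal neurons than in both other subtypes, and Camk2b and Vsnl1 as lower than in corticothalamic neurons. Camk2d, Camk2g and Ncald passed in no comparison of subtypes over all columns. Camk2a, Camk2b, Camk4, Camkv and Ptk2b, 5 of the 10, were lowest in callosal neurons at all 4 stages. Against corticothalamic neurons 7 of 10 passed as lower in callosal neurons and 0 as higher, where 31.3% of all genes tested passed, 16% as lower and 15.3% as higher. Against subcerebral neurons 5 of 10 passed as lower and 0 as higher, where 29.3% of all genes passed, 15.2% as lower and 14.1% as higher. The medians of the members were -0.85 and -0.44, against 0.01 and -0.01 over all genes tested. Between subcerebral and corticothalamic neurons only Vsnl1 passed, lower in subcerebral neurons, where 27.5% of all genes passed, 12.8% as lower and 14.7% as higher. Of 10 tested microglial markers 9 passed as higher in callosal neurons against each of the other subtypes, and Aif1 passed as lower against corticothalamic neurons. Those 9 met the filter only through callosal columns, so being tested already required them to be high there. Against corticothalamic neurons, 2 of 4 tested subplate markers passed as lower in callosal neurons. Of 9 tested progenitor and proliferation markers, 4 (Hes5, Nes, Neurog2 and Pax6) passed as higher in callosal neurons against subcerebral neurons, 2 (Nes and Neurog2) against corticothalamic neurons, and 0 as lower in either. Hes5 met the filter only through callosal and corticothalamic columns. Of 9 interneuron markers only Npy passed, as lower in callosal than in corticothalamic neurons. The part of these cells in the differences was not tested.

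The comparison with subcerebral neurons depended on single stages. Of the 5 genes that passed there, only Camk2a passed with E16 left out, with E18 left out or with the E16 callosal value left out. For Camk4, Camkv, Hpcal4 and Ptk2b the adjusted p was then 0.146, 0.121, 0.218 and 0.0974 with no E16, 0.152, 0.0816, 0.119 and 0.166 with no E18, and 0.0825, 0.0669, 0.135 and 0.0719 with no E16 callosal value. With the E15 callosal value left out Camk4 and Hpcal4 missed the threshold, at 0.0570 and 0.0885. Against corticothalamic neurons, Camk2a, Camkv, Vsnl1, Hpcal4 and Ptk2b passed whichever stage was left out, while for Camk2b and Camk4 the adjusted p was 0.122 and 0.107 with no E16, then 0.0631 and 0.135 with no E18. Those 2 genes also missed the threshold without the E15 callosal value (0.0630 and 0.0613) and without the E16 callosal value (0.0732 and 0.0697). Of 14 other settings in all, Camk2b passed against corticothalamic neurons in 9 and Camk4 in 10.

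**Figure D2:**
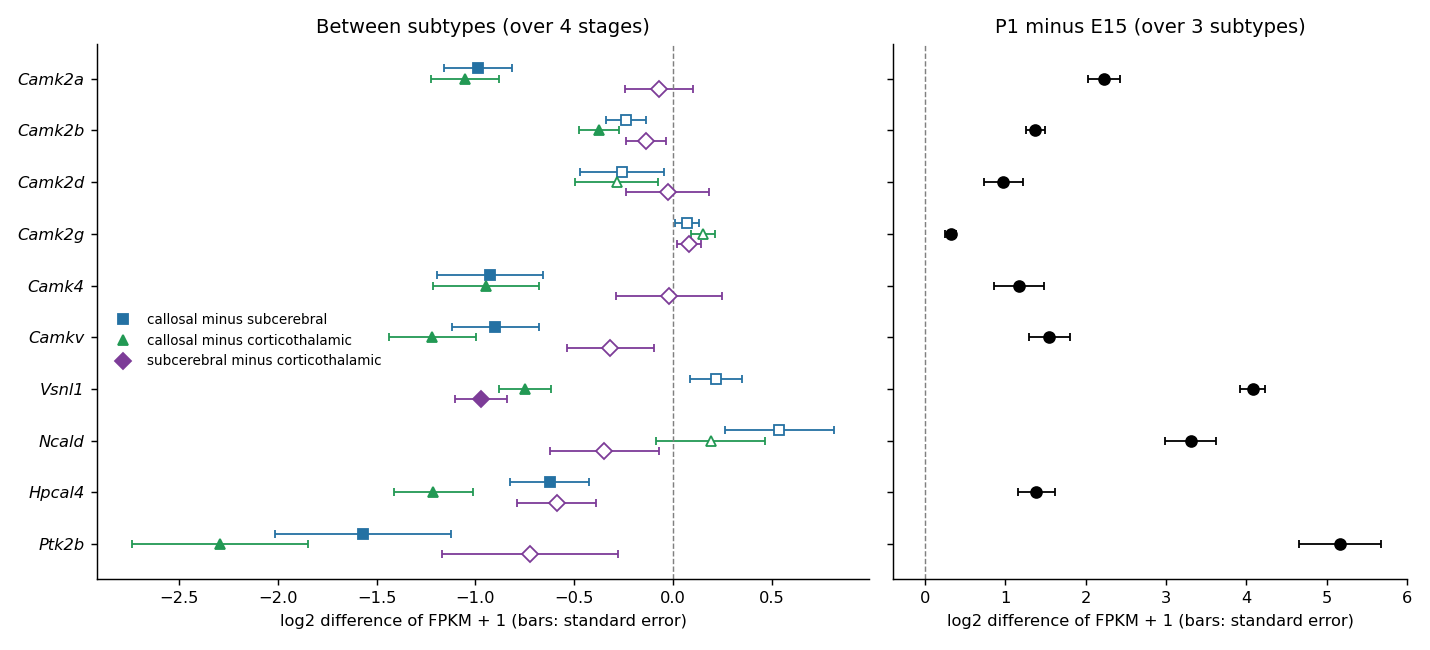
Log2 differences of FPKM + 1 with the standard error of the limma fit (bars) for each gene: on the left between subtypes over 4 stages, on the right P1 minus E15 over 3 subtypes. Filled symbols passed an adjusted p of 0.05; on the left Ptk2b lies farthest from 0 (-2.29 against corticothalamic neurons), and on the right all 10 are above 0.

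Among the CaMKII genes, Camk2b supplied most of the transcript in every group. It was 103, 211, 266 and 311 FPKM in callosal neurons from E15 to P1, 128, 263, 279 and 370.1 FPKM in subcerebral neurons and 174, 276, 301 and 351 FPKM in corticothalamic neurons. Each subtype was higher at each stage than at the stage before, the greater part of the rise lying between E15 and E16, by which stage the level was 68.0% of the P1 level in callosal, 71.1% in subcerebral and 78.8% in corticothalamic neurons. At P1 Camk2b ranked 150th, 141st and 107th of all entries in callosal, subcerebral and corticothalamic neurons. Callosal neurons were lower than corticothalamic neurons by a mean of 0.37 ± 0.10 on the log2 scale (limma adjusted p = 0.0226), a gap that was 0.75 at E15 and 0.18 at P1. The difference from subcerebral neurons, -0.24 ± 0.10, did not pass (limma adjusted p = 0.105).

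Camk2a, the alpha subunit gene, was far less abundant. It was 1.03, 2.52, 4.20 and 9.69 FPKM in callosal neurons from E15 to P1, 2.36, 8.81, 11.2 and 14.1 FPKM in subcerebral neurons, and 3.09, 5.83, 13.7 and 16.9 FPKM in corticothalamic neurons. The callosal value was the lowest of the 3 at each stage, and the callosal level at P1 was below the E18 level of both other subtypes. Callosal neurons differed by -0.98 ± 0.17 from subcerebral (limma adjusted p = 0.00490) and by -1.05 ± 0.17 from corticothalamic neurons (limma adjusted p = 0.00265). Subcerebral and corticothalamic neurons differed by -0.07 ± 0.17 (limma adjusted p = 0.780), and their order changed: subcerebral neurons were the higher at E16 and corticothalamic neurons at the other stages.

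Camk2g, the gamma subunit gene, lay between 38.0 and 53.3 FPKM in all 12 groups. It was 42.8, 43.0, 45.9 and 53.3 FPKM in callosal neurons, 41.8, 45.1, 38.3 and 51.0 FPKM in subcerebral neurons and 39.2, 38.5, 38.0 and 51.0 FPKM in corticothalamic neurons. Its steps before E18 were -0.23 to 0.11 on the log2 scale, and the step from E18 to P1 was 0.21, 0.40 and 0.42 on the log2 scale in callosal, subcerebral and corticothalamic neurons. No subtype comparison passed; the widest was callosal minus corticothalamic at 0.15 ± 0.06 (limma adjusted p = 0.0943). Camk2d, the delta subunit gene, was below 1 FPKM in 10 of the 12 groups. It reached 1.90 FPKM in subcerebral and 1.99 FPKM in corticothalamic neurons at P1, while callosal neurons were at 0.446 FPKM at that stage, and none of its subtype comparisons passed.

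The make-up of the CaMKII transcripts differed between E15 and P1 in all 3 subtypes. Summed over the 4 genes, the level went from 147 to 374 FPKM in callosal, from 172 to 437 FPKM in subcerebral and from 217 to 421 FPKM in corticothalamic neurons between E15 and P1. The share of Camk2b in that sum was 70.0%, 74.3% and 80.3% at E15 in callosal, subcerebral and corticothalamic neurons, and 83.0%, 84.7% and 83.4% at P1. That of Camk2g went over the same interval from 29.1% to 14.2% in callosal, from 24.3% to 11.7% in subcerebral and from 18.1% to 12.1% in corticothalamic neurons. Camk2a went from 0.698% to 2.59%, from 1.37% to 3.22% and from 1.43% to 4.01%, in the same order of subtypes. The ratio of Camk2b to Camk2a was 100.3 in callosal neurons at E15 and 32.0 at P1, and 56.3 and 20.8 in corticothalamic neurons. These shares have no replicates and were not tested.

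**Figure D3:**
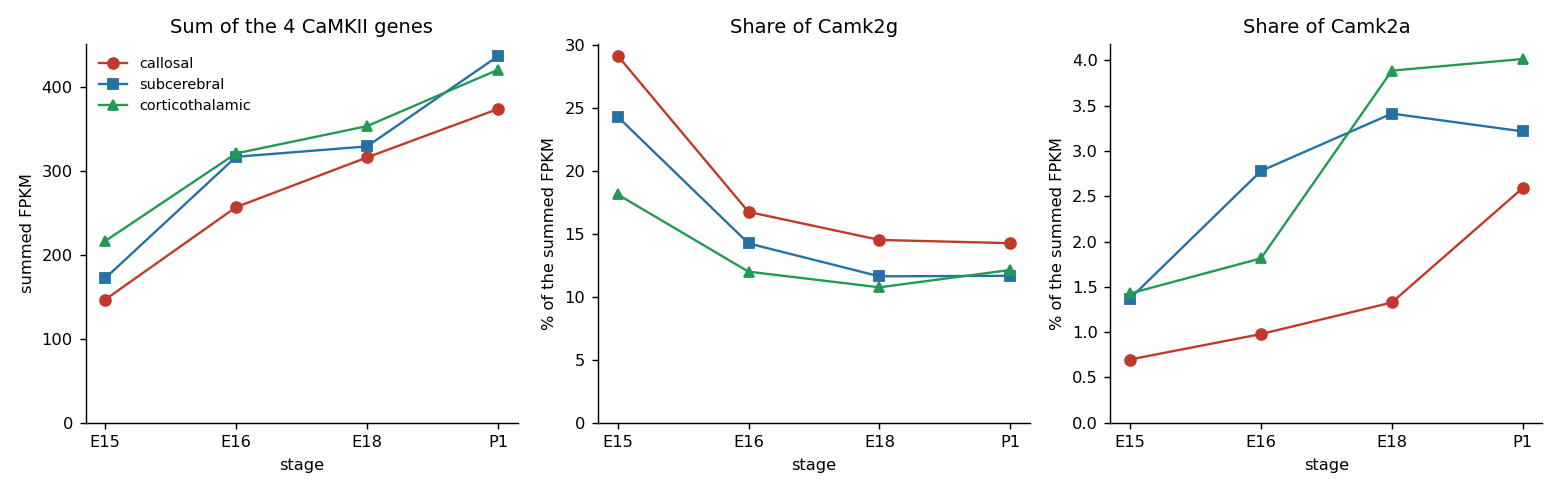
The 4 CaMKII genes together by stage: summed FPKM (left), and the share of Camk2g (middle) and Camk2a (right) in that sum in percent, with 1 pooled value per point for callosal (red), subcerebral (blue) and corticothalamic neurons (green). The Camk2g share is highest in callosal neurons at every stage, at 29.1% at E15 and 14.2% at P1, and the Camk2a share is lowest there.

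Camk4 had different courses in the 3 subtypes. It was 5.18, 6.43, 9.75 and 28.9 FPKM in corticothalamic neurons from E15 to P1, 11.1, 7.70, 8.67 and 12.6 FPKM in subcerebral neurons, and 3.67, 3.45, 4.29 and 8.75 FPKM in callosal neurons. Subcerebral neurons were the highest at E15 and E16 and corticothalamic neurons at E18 and P1, the latter after a step of 1.48 on the log2 scale between E18 and P1. Callosal neurons were the lowest throughout, by -0.92 ± 0.27 against subcerebral (limma adjusted p = 0.0337) and -0.95 ± 0.27 against corticothalamic neurons (limma adjusted p = 0.0285). The other 2 subtypes differed by -0.02 ± 0.27 on average (limma adjusted p = 0.957), a mean over opposite signs: 0.98 at E15 and -1.13 at P1.

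Camkv, which encodes a CaM kinase-like protein of synapses regarded as a pseudokinase, was about as abundant as Camk2b at the last stage. Its level was 222, 292, 331 and 369 FPKM in corticothalamic neurons from E15 to P1, 128, 242, 281 and 374 FPKM in subcerebral neurons and 51.0, 108, 179 and 268 FPKM in callosal neurons. Corticothalamic neurons already held 60.1% of their P1 level at E15, subcerebral neurons 34.3% and callosal neurons 19.1%. The callosal level at P1 was still below the corticothalamic level at E16. Callosal neurons differed by -0.90 ± 0.22 from subcerebral (limma adjusted p = 0.0182) and by -1.22 ± 0.22 from corticothalamic neurons (limma adjusted p = 0.00424). The distance from corticothalamic neurons was smaller at each later stage, from 4.34-fold at E15 through 2.71-fold and 1.85-fold to 1.38-fold at P1; whether it changed with stage has no test here.

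The calcium sensor genes each had their own order of subtypes. Vsnl1 was 2.57, 6.48, 27.9 and 74.7 FPKM in corticothalamic neurons from E15 to P1, 1.32, 3.04, 16.2 and 44.3 FPKM in callosal neurons, and 1.64, 2.72, 12.1 and 29.7 FPKM in subcerebral neurons. Corticothalamic neurons were the highest at all 4 stages, and the fold over callosal neurons stayed between 1.69 and 2.13. Callosal minus corticothalamic was -0.75 ± 0.13 (limma adjusted p = 0.00360) and subcerebral minus corticothalamic -0.97 ± 0.13 (limma adjusted p = 0.00329; 0.0551 without E18). Callosal and subcerebral neurons differed by 0.22 ± 0.13 (limma adjusted p = 0.233), with subcerebral neurons the lower from E16 on; with E15 left out the difference was 0.36 and passed (limma adjusted p = 0.0150). Most of the rise came late: at E16 Vsnl1 stood at 6.88% to 9.16% of its P1 level, and the step from E16 to E18 was 1.81 to 2.08 on the log2 scale.

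Ncald, the neurocalcin delta gene, was the member with callosal neurons highest at the middle stages. It was 3.53, 25.8, 49.4 and 62.6 FPKM in callosal neurons from E15 to P1, 5.33, 10.2, 29.7 and 39.2 FPKM in subcerebral neurons and 5.80, 10.97, 37.4 and 72.5 FPKM in corticothalamic neurons. From E15 to E16 the callosal step was 2.56 on the log2 scale, against 0.83 in subcerebral and 0.82 in corticothalamic neurons. Over the 4 stages no comparison passed: callosal minus subcerebral was 0.54 ± 0.28 (limma adjusted p = 0.169), callosal minus corticothalamic 0.19 ± 0.28 (limma adjusted p = 0.636) and subcerebral minus corticothalamic -0.35 ± 0.28 (limma adjusted p = 0.353). Without E15, or without the E15 callosal value alone, the callosal excess over subcerebral neurons was 0.88 and 0.84 and passed (limma adjusted p = 0.0184 and 0.0246).

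Hpcal4 was 7.65, 11.7, 18.9 and 20.1 FPKM in corticothalamic neurons from E15 to P1, 4.96, 9.22, 13.5 and 9.19 FPKM in subcerebral neurons, and 1.48, 4.34, 10.4 and 9.55 FPKM in callosal neurons. Corticothalamic neurons were the highest at every stage, and the other 2 subtypes, nearly level at P1, were lower then than at E18. Callosal minus corticothalamic was -1.21 ± 0.20 (limma adjusted p = 0.00289). Callosal minus subcerebral was -0.62 ± 0.20 with a limma adjusted p of 0.0476, which ranged from 0.0327 to 0.218 over 14 other settings, of which it passed in 5. Subcerebral minus corticothalamic was -0.59 ± 0.20 (limma adjusted p = 0.0584), which passed in 4 of 14 other settings (0.0231 to 0.176). Together the 3 sensor genes went from 6.32 to 116 FPKM in callosal, from 11.9 to 78.1 FPKM in subcerebral and from 16.02 to 167 FPKM in corticothalamic neurons, and the share of Hpcal4 in corticothalamic neurons went from 47.8% to 12.03% as that of Vsnl1 went from 16.1% to 44.6%.

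Ptk2b had the widest range of the 10 genes on the log2 scale. It was 3.41, 31.7, 52.3 and 85.5 FPKM in corticothalamic neurons from E15 to P1, 0.432, 13.3, 46.7 and 91.1 FPKM in subcerebral neurons, and 0.121, 1.03, 11.4 and 40.0 FPKM in callosal neurons. At E15 only corticothalamic neurons were above 1 FPKM, and at E16 every subtype was, callosal neurons only just. Subcerebral and corticothalamic neurons were above 10 FPKM from E16 on and callosal neurons from E18 on. The E16 level was 37.0% of the P1 level in corticothalamic, 14.6% in subcerebral and 2.57% in callosal neurons. Callosal neurons differed by -2.29 ± 0.45 from corticothalamic (limma adjusted p = 0.00599) and by -1.57 ± 0.45 from subcerebral neurons (limma adjusted p = 0.0312), while subcerebral minus corticothalamic was -0.72 ± 0.45 (limma adjusted p = 0.240). At E16 corticothalamic and subcerebral neurons held 30.7-fold and 12.9-fold the callosal level, and at P1 2.14-fold and 2.28-fold. Ptk2b is also expressed by microglia, whose summed markers were highest in callosal neurons at E16, where Ptk2b was 1.03 FPKM. The part of microglia in the Ptk2b values was not tested. Without the E16 callosal value the difference from corticothalamic neurons passed, and that from subcerebral neurons was -1.07 (limma adjusted p = 0.0719).

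**Figure D4:**
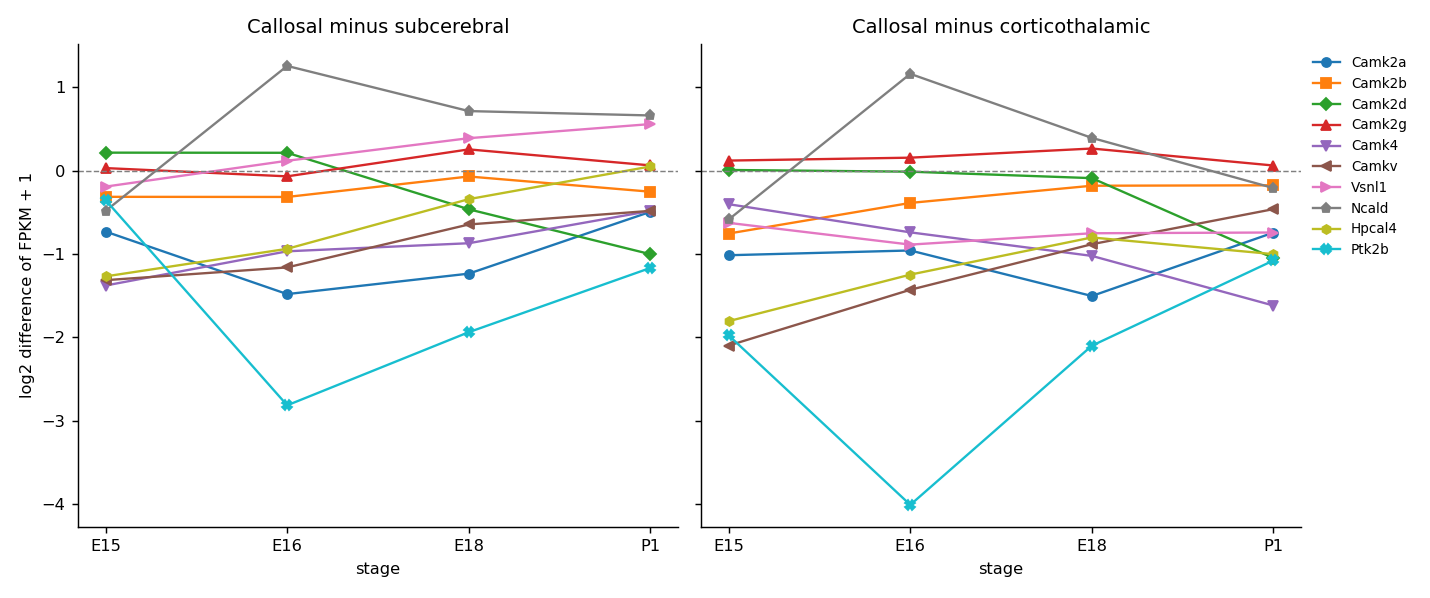
Log2 difference of FPKM + 1 at each stage for callosal minus subcerebral (left) and callosal minus corticothalamic neurons (right), with 1 line per gene and no error, since each point is a difference of 2 pooled values. The Ptk2b line is lowest at E16 (-2.81 and -4.01), the Camkv line approaches 0 with age, and the Ncald line crosses 0 between E15 and E16 in both panels. In the right panel the Ncald line crosses 0 again between E18 and P1.

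The members did not follow a single course. Across the 12 values on the log2 scale, the correlation between pairs of members ran from 0.05 (Hpcal4 and Camk2g) to 0.96 (Ptk2b and Camk2a); the points share stages and subtypes, so these are descriptions. Among 9359 other genes with a mean of at least 5 FPKM, the closest match in pattern to Camk2a was Eef2k (Pearson r = 0.99 over 12 values), a calmodulin-dependent kinase gene, followed by Fam102b (0.98) and Slc7a8 (0.97). For Camk2b it was the GABA receptor subunit gene Gabrb2 (0.98), with 6330403A02Rik and Coro2a at 0.97. For Camkv it was AK138412 (0.98), then Dock9 and Parp8 (0.98 each). For Vsnl1 it was Tmem25, Tmem181b and Tceal6 (0.99, 0.99 and 0.98), for Ncald Osbpl1a, H2-M5 and Wscd2 (0.98, 0.97 and 0.96), and for Ptk2b Cdkl1, Diras2 and Chmp2b (0.98, 0.98 and 0.97). The matches were less close for Camk2d (Itgb1bp1, Cltc and Aplp2; 0.96, 0.96 and 0.95), Hpcal4 (Aldh5a1, Bend6 and Itsn2; 0.94 each), Camk2g (Tymp, Mtf1 and Snrpc; 0.94, 0.93 and 0.93) and Camk4 (Adk, Tceal5 and Per1; 0.93, 0.92 and 0.92). Tmem181b, Tceal5 and Tceal6 have close paralogs, between which the assignment of fragments is uncertain.

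Other genes of the pathway are read against the 33.8% of all genes that passed as higher at P1 and the 33.6% that passed as lower. Of 11 tested calmodulin and calcineurin genes 9 were higher and 0 lower at P1 than at E15 (median 0.85). Rcan2, among the 9, met the filter only through columns of E18 and P1. Of 7 tested relatives of the sensor genes 4 were higher and 1 lower (median 1.06), from Kcnip4 at 2.45 ± 0.35 to Kcnip3 at -1.13 ± 0.19, both genes of potassium channel-interacting proteins. Kcnip4 met the filter only through columns after E15. Of 10 tested EF-hand genes outside the sensor family 5 were higher and 2 lower (median 0.77), from Necab1 at 3.20 ± 0.46 to Cabp7 at -1.98 ± 0.49. Calb2, among the 5, met the filter only through the callosal columns of E18 and P1. Of 11 tested genes of the CaM kinase cascade and the CaMKII inhibitors 5 were higher and 3 lower (median 0.28), from Camk1 at 1.14 ± 0.22 to Camk1g at -0.58 ± 0.17. Both of the last lists had shares not far from those over all genes. Of 16 genes of focal adhesion kinase (Ptk2) and its partners 10 were lower and 3 higher (median -0.33), from Crkl, an adaptor gene, at -1.44 ± 0.12 to Pitpnm1 at 1.197 ± 0.17. Ptk2, the nearest relative of Ptk2b, was at -0.57 ± 0.16 (limma adjusted p = 0.0118). Of 8 genes of CREB and its coactivators 6 were lower and 0 higher at P1 (median -0.55), with Creb1, a substrate of CaMKIV, at -1.25 ± 0.08.

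Between subtypes most of these lists held genes that passed in each direction; every gene named here with an error passed unless stated. Over all genes, 12.8% to 16% passed in a given direction of a subtype comparison, so 1 or 2 genes in a list of 10 or 11 are close to that share. Of the CaM kinase cascade and inhibitor genes, 2 of 11 were higher and 1 lower in callosal than in subcerebral neurons, 2 higher and 3 lower in callosal than in corticothalamic neurons, and 2 higher and 5 lower in subcerebral than in corticothalamic neurons. The 2 CaMKII inhibitor genes stood at opposite ends against subcerebral neurons: Camk2n2 was higher in callosal neurons by 2.05 ± 0.25 and Camk2n1 differed by -1.42 ± 0.16. Camk2n1 was also lower in callosal than in corticothalamic neurons (-2.30 ± 0.16), where the CaM kinase kinase gene Camkk2 was higher (0.66 ± 0.17). Camkk2 was higher (0.98 ± 0.17) and Camk2n2 lower (-1.66 ± 0.25) in subcerebral than in corticothalamic neurons.

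Of the calmodulin and calcineurin genes, 1 of 11 was higher and 3 lower in callosal than in subcerebral neurons, with Ppp3ca, a calcineurin catalytic subunit gene, at 0.23 ± 0.07 and Rcan3, a calcineurin regulator gene, at -2.79 ± 0.31. Against corticothalamic neurons 2 were higher and 4 lower in callosal neurons, with Rcan3 at -3.04 ± 0.31. Between subcerebral and corticothalamic neurons 2 were higher and 3 lower, with Calm3 at 0.44 ± 0.13 and Rcan2 at -0.61 ± 0.13. Of the 7 sensor relatives, 2 were higher and 2 lower in callosal than in subcerebral neurons, with Hpca, the hippocalcin gene, at 1.54 ± 0.29 and Kcnip2 at -2.02 ± 0.26. Against corticothalamic neurons 1 was higher and 2 lower in callosal neurons, with Ncs1 at 0.34 ± 0.08 and Kcnip2 at -2.93 ± 0.26. In subcerebral against corticothalamic neurons 1 was higher and 4 lower, with Ncs1 at 0.41 ± 0.08 and Kcnip3 at -1.72 ± 0.17.

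Of the EF-hand genes outside the sensor family, 2 of 10 were higher and 3 lower in callosal than in subcerebral neurons, with Necab2 at 0.81 ± 0.16 and S100a10 at -2.31 ± 0.42. Calb2, the other of the 2 that were higher, met the filter only through the callosal columns of E18 and P1. Against corticothalamic neurons 4 were lower in callosal neurons and 0 higher, with Cabp7 at -2.82 ± 0.43. S100a10 was higher (1.37 ± 0.42) and Necab1 lower (-1.92 ± 0.39) in subcerebral than in corticothalamic neurons, with 1 higher and 4 lower in all. Among focal adhesion kinase partners, 5 of 16 were higher and 1 lower in callosal than in subcerebral neurons, with Nedd9 at 1.02 ± 0.20 and Grb2 at -0.27 ± 0.05. Against corticothalamic neurons 3 were higher and 3 lower in callosal neurons, and 2 higher and 5 lower in subcerebral neurons. The Src-family kinase gene Fyn was the highest in both (0.93 ± 0.10 and 0.56 ± 0.10) and Pitpnm3 the lowest (-1.45 ± 0.11 and -2.03 ± 0.11). Ptk2 itself, the focal adhesion kinase gene, had differences of 0.22 ± 0.14, -0.03 ± 0.14 and -0.25 ± 0.14 in callosal minus subcerebral, callosal minus corticothalamic and subcerebral minus corticothalamic neurons, none of which passed (limma adjusted p = 0.247, 0.907 and 0.197). Of the CREB list, Creb1 alone passed, higher in callosal than in subcerebral neurons by 0.26 ± 0.07.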

How the data were processed

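RNA from FACS-sorted neurons was poly(A)-selected and sequenced, per the labels' protocols. The deposited table was read as FPKM made by the authors with TopHat2 and Cufflinks on build mm9, per the submitters' processing notes; its header names no unit, and versions, annotation, scaling, strand and the pooling of 2 libraries per group were not given in the sources used here. Column sums ran from 355965 to 473871. FPKM keep no counts, so depth is unknown and no counting interval is given.

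Names were read by splitting each line from the right. Genes that reached 1 FPKM in 2 or more of 12 columns (13946) were fitted in R 4.3.3 by limma 3.58.1 with statmod 1.5.0 (trended, robust moderation) on log2(FPKM + 1), a pseudocount of 1 that understates changes of low genes, with additive stage and subtype terms and 6 residual degrees of freedom. P-values were Benjamini-Hochberg adjusted (threshold 0.05). The residual is the interaction of subtype and stage, so differences at a single stage have no test. The script was tested on simulated data. Values were computed with Python 3.11.15, and figures drawn with matplotlib 3.10.9. All 10 members were named, with the pathway gene of largest difference in each direction per list and comparison among those that passed (Ptk2 was added after its values were seen, and 1 gene that the rule names is not reported here) and the 3 genes most like each member in pattern. The members and lists were chosen with earlier results of these data known. Promoters were matched by symbol in a RefSeq table of GRCm38.p6, and 5 members had a window that was used. Members with an entry on a chromosome set aside here were skipped, so a missing window does not mean a missing entry. No protein sequence was used here. Alternatives were other pseudocounts, filters, scalings, moderation and fits without each stage or subtype.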

Additional observations from a re-analysis of the deposited data

Results flagged for a closer look

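Differences between subtypes that were at least 1.5-fold one way at a given stage and at least 1.5-fold the other way at another, with all values at 1 FPKM or more, were found for 2 genes. None of these changes of order was tested, since each is a difference of single pooled values. Camk4 in corticothalamic neurons was 0.465 times the subcerebral level at E15 and 2.29 times that level at P1. Ncald in subcerebral neurons was 1.51 times the callosal level at E15 and 0.396 times that level at E16. In corticothalamic neurons Ncald was 1.64 times the callosal level at E15 and 0.426 times that level at E16. Both Ncald changes involve the callosal values of E15, where Gad1 was 7.53 FPKM, and of E16, where summed microglial markers were 48.7 FPKM; their part in the changes was not tested.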

How the results depend on the processing

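No paired analysis was possible because the table holds 1 pooled value per group and no column carries a replicate number. The count of members higher at P1 than at E15 was 10, and 7 to 9 with a subtype left out. Camk2d, which met the filter only through its P1 values, is among the 10. Callosal minus corticothalamic gave 7 members, and 5 to 7 with a stage left out. Callosal minus subcerebral gave 5, but 2 with no filter, 1 when the E16 callosal value was dropped, and 1 to 6 with a stage left out. The 6, with E15 dropped, were 4 lower and 2 higher (Vsnl1 and Ncald), and dropping the E15 callosal value gave 3 lower and 1 higher (Ncald). Subcerebral minus corticothalamic gave 1, but 3 with quantile normalization (with Camk2b and Hpcal4), 2 in a fit on the 8 columns of these subtypes, 2 without the E15 callosal value, and 0 to 2 with a stage left out; the second gene was Hpcal4. The fits without the E15 or the E16 callosal value were chosen after seeing the data. Signs changed only for small differences that passed in no setting. Ncald, callosal minus corticothalamic, was -0.091 without the E16 callosal value and -0.13 to 0.45 with a stage left out. In subcerebral minus corticothalamic, Camk2d was 0.057 with quantile normalization and -0.16 to 0.040 with a stage left out, Camk2a -0.27 to 0.0019 and Camk4 -0.35 to 0.35. The cause was not tested. Over all genes, callosal minus subcerebral called 4093, against 1016 to 6179 with a stage left out, 2606 in a fit on 8 columns and 2174 when the E16 callosal value was dropped. Callosal minus corticothalamic called 4361, against 1868 when E16 was dropped, 2024 when E18 was, and 2812 when the E16 callosal value was. Subcerebral minus corticothalamic called 3835, against 251 to 6258 with a stage left out and 2409 in a fit on 8 columns. P1 minus E15 called 9400, against 6130 in a fit on the 6 columns of E15 and P1. Pooled values and unknown depth limit all of these.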
